A study of Mus musculus with 39 samples.

Results

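The comparison described here sets 3 mice carrying AE9a leukaemia with added miR-126 at the first passage (AE9a+miR-126) against 3 normal controls. Its 6 arrays, 1 per mouse, were chosen by their titles from the 39 arrays of the series. AE9a is a shortened, strongly leukaemogenic version of AML1-ETO, the fusion protein that the t(8;21) translocation makes in acute myeloid leukaemia, and AE9a+miR-126 cells carried it together with extra copies of the microRNA miR-126. The normal controls came from transplanted mice of the first passage. The other first-passage arms, used where the text says so, are AE9a alone (3 mice) and miR-126KO+AE9a, in which AE9a was put into cells lacking miR-126 (3 mice). RNA of every group, controls included, came from donor cells sorted by flow cytometry from the bone marrow of a transplant recipient at its end stage. No source used here gives the vectors, the promoters that drove AE9a and miR-126, or the strain and age of the mice. In the other 27 arrays of the series the 3 leukaemia arms were followed through passages 2 to 4.

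Runt factors such as RUNX1 open chromatin at blood cell genes, and the ETO portion of the fusion brings in corepressors, so AE9a blocks the maturation of myeloid progenitors. MicroRNAs pair through their seed with messenger RNAs and lower their stability or translation. miR-126, made from an intron of Egfl7, is known from endothelium and from blood stem cells. In blood stem cells it damps PI3K signalling. It is abundant in human core-binding-factor leukaemias.

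Values are log2 expression levels, so 1 unit stands for 2-fold. A gene is said to pass where limma gave it an adjusted p below 0.05, over the 22180 genes tested. Differences are AE9a+miR-126 minus normal unless another arm is named, a ± after a difference is its standard error, and a ± after a level is the SD of 3 mice. Arrays correlated at 0.972 to 0.992 within AE9a+miR-126, at 0.971 to 0.988 within the normal controls and at 0.931 to 0.962 between these groups. Pan-leukocyte markers such as Ptprc and Laptm5 averaged 10.1 to 10.5 in AE9a+miR-126 mice and 10.1 to 10.6 in controls, and 0 of 6 changed. The 7 myeloid markers averaged 10.1 to 10.5 and 10.3 to 10.6 in the same order of groups, and 1 of 7, Fcgr3, was higher. AE9a+miR-126 mouse 2 stood lower than its group in lymphoid and granule genes, as given with those genes. Xist, the RNA of the inactive X chromosome, was at 11.45, 11.43 and 11.40 in AE9a+miR-126 mice, against 6.52, 10.96 and 10.99 in controls. Control 1 was thus far below the other 5 mice. Y-linked Kdm5d was at 5.22, 3.33 and 4.31 in AE9a+miR-126 mice, against 8.12, 6.99 and 6.13 in controls, and fell (-2.79 ± 0.61, adjusted p = 0.00257). Of the 4 sex-linked genes measured, the remaining Eif2s3y and Uty lay 2.31 and 2.03 lower without passing; without AE9a+miR-126 mouse 1 or control 3 the list had 2 falls. The mice or donors therefore did not all share the same sex chromosome expression, and the part of this in the results was not tested.

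The probe set annotated jointly to Mir126a and Egfl7 was at 8.48, 8.27 and 8.18 in AE9a+miR-126 mice. It was at 2.79, 2.76 and 2.92 in AE9a, at 2.86, 2.96 and 2.96 in miR-126KO+AE9a and at 2.97, 3.04 and 3.88 in normal controls. The 3 mice given miR-126 thus stood above every other mouse of the first passage, with a difference from controls of 5.01 ± 0.51 (adjusted p = 1.39e-07 over all probe sets). The control level lay under the 25th percentile of the arrays (4.22 to 4.45 on the 6), so this probe set does not show how much native transcript was there or whether the knockout lost any. The separate probe set of Egfl7, the host gene, did not pass (5.47, 5.76 and 5.71 in AE9a+miR-126 mice, 5.90, 6.01 and 6.35 in controls, adjusted p = 0.229). Mature miR-126 itself is not measured by this array. Probe sets for 3 further microRNA genes, Mir221, Mir222 and Mir146, were also higher; they were chosen after their values had been seen. The mature sequences of the added microRNA and of the pair with the highest of these differences are shown 5′ to 3′ with the seed, bases 2 to 8, in capitals, from RefSeq on GRCm38.p6. miR-126a-3p lies at chr2:26591402-26591423 on the plus strand, miR-221-3p at chrX:19146307-19146329 and miR-222-3p at chrX:19146901-19146923, both on the minus strand.
mmu-miR-126a-3p: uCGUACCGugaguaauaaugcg
mmu-miR-221-3p: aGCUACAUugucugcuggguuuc
mmu-miR-222-3p: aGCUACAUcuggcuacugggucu
miR-221 and miR-222 share the seed GCUACAU, which differs from the seed of miR-126a-3p, CGUACCG. The Mir221 probe set was at 7.61, 9.61 and 8.66 in AE9a+miR-126 mice, against 3.58, 3.42 and 3.63 in controls (5.08 ± 0.62, adjusted p = 1.73e-06). The Mir222 probe set was at 6.82, 8.68 and 7.79, against 4.14, 4.55 and 3.86 in controls (3.58 ± 0.37, adjusted p = 2e-07). The groups did not overlap for either, and mouse 2 was highest in both. Mir146 was at 4.24, 3.39 and 4.2 in AE9a+miR-126 mice, against 2.70, 2.84 and 2.92 in controls. Mir146 in both groups and Mir221 in the controls lay at or under the 25th percentile, and Mir222 in the controls lay near it. The size of these differences is therefore uncertain. The cell cycle inhibitor Cdkn1b, a known target of miR-221 and miR-222 in human cells, was at 9.04, 8.36 and 8.87 in AE9a+miR-126 mice, against 9.41, 9.45 and 9.21 in controls, and did not pass (adjusted p = 0.508).

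Of the 22180 genes, 1011 (4.56%) were higher and 1148 (5.18%) lower in AE9a+miR-126 mice, 9.73% in all, and the median difference over all genes was 0.01. Differences of at least 4-fold were more often rises, with 157 genes up and 77 down, and at 8-fold or more 45 were up and 10 down. Without AE9a+miR-126 mouse 2 or mouse 3 the total of 2159 passing genes became 1354 and 1319. Without control 1 there were 805 genes higher and 674 lower, and without control 3 there were 655 higher and 976 lower, so which direction was more frequent depended on the controls. The largest rise was that of Il1a, the alarmin interleukin 1 alpha, at 10.79, 11.61 and 11.14 in AE9a+miR-126 mice, against 4.36, 4.51 and 4.50 in controls, a 106-fold difference (6.73 ± 0.83, adjusted p = 2.22e-06). Plet1, a surface glycoprotein first known from placenta, was at 11.57, 11.28 and 11.46, against 5.77, 5.90 and 5.51 in controls (5.71 ± 0.37, adjusted p = 1.68e-11). Serpinb8, an intracellular inhibitor of serine proteases, was at 9.60, 10.37 and 9.90, against 4.57, 4.28 and 4.56 in controls (5.48 ± 0.47). By the rule used here, microRNA genes, predicted genes, histone genes and immunoglobulin segments are passed over when the largest changes are named, which leaves out Mir221 (5.08) among the rises and the histone gene H4c17 among the falls. In the 3 genes above the lowest AE9a+miR-126 mouse stood more than 16-fold above the highest control. Among the kinds of gene named, next came the collagenase Mmp13 (5.22 ± 0.72), the membrane proteins Tm4sf19 (4.92 ± 0.52) and Emp1 (4.89 ± 0.53), and Errfi1, an inhibitor of the EGF receptor (4.56 ± 0.52). The chemokine Cxcl16 rose by 4.42 ± 0.48, Serpinb2, an inhibitor of plasminogen activators, by 4.37 ± 0.72, and the interferon-inducible Ifi205 by 4.35 ± 0.62. Tnip3, a partner of the NF-kappaB inhibitor A20, rose by 4.26 ± 0.50 and the placental growth factor Pgf by 4.24 ± 0.61. Control levels of Il1a, Serpinb8, Mmp13 and Serpinb2 lay at or near the 25th percentile of the arrays, where the size of a fold is uncertain.

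Red cell and basophil genes made up 6 of the 12 largest falls named. Car1, carbonic anhydrase 1 of red cells, was at 4.15, 4.95 and 4.90 in AE9a+miR-126 mice, against 10.45, 9.18 and 10.32 in controls, a 39.9-fold difference (-5.32 ± 0.69, adjusted p = 5.29e-06). Car2, its more widely expressed relative, was at 7.60, 3.98 and 6.50, against 10.32, 9.19 and 10.03 in controls (-3.82 ± 0.80, adjusted p = 0.00178). Car1 was below every control in each leukaemic mouse by a wide margin, while Car2 ranged widely among them and was lowest in mouse 2. Car1 in mouse 1 and Car2 in mouse 2 lay under the 25th percentile of the arrays, where the size of a fold is uncertain. Far2, a fatty acyl-CoA reductase, fell by 3.59 ± 0.49, the basophil protease Mcpt8 by 3.52 ± 0.50 and the Rh-associated ammonium channel Rhag by 3.51 ± 0.71. Ctse, the aspartic protease cathepsin E, fell by 3.32 ± 0.51, the basophil and mast cell protease Prss34 by 3.23 ± 0.26 and the erythroid adhesion molecule Ermap by 3.18 ± 0.56. Fcnb, the neutrophil lectin ficolin B, fell by 3.12 ± 0.51, the lymphoid transcription factor Spib by 2.91 ± 0.39, Bex6 by 2.88 ± 0.60 and Btla, an inhibitory receptor of lymphocytes, by 2.81 ± 0.41. By the rule that chose them, the 3 mice of one group lay above the 3 of the other in all 24 genes, as did 30.8% of all genes tested.

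**Figure D1:**
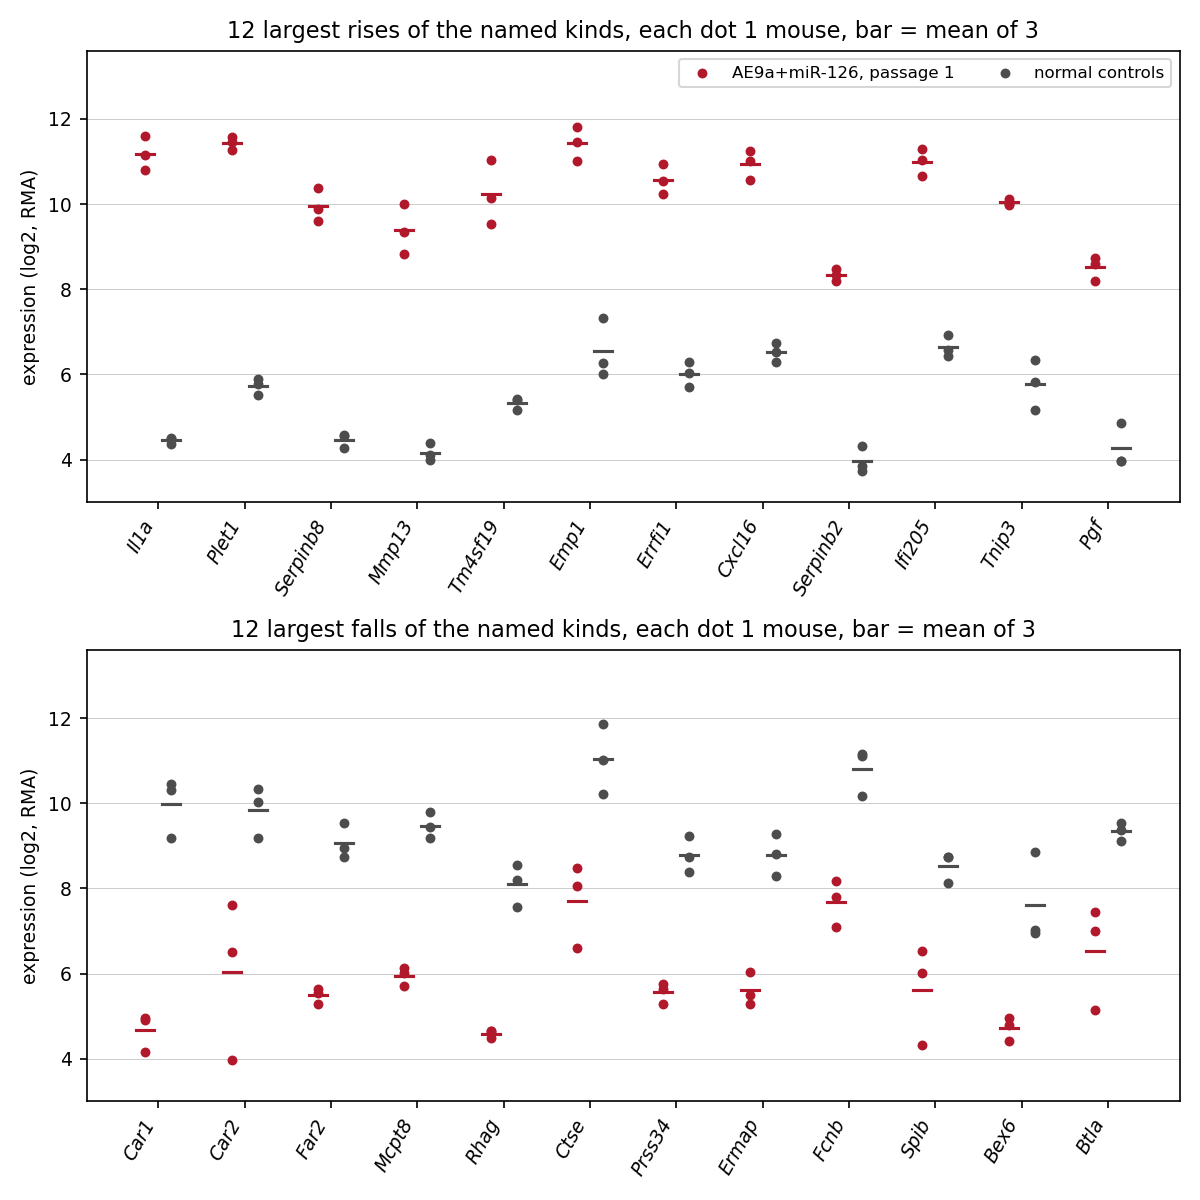
Expression (log2) of the 12 largest rises (upper panel) and 12 largest falls (lower panel) that passed with no overlap between groups, with microRNA, predicted, histone and immunoglobulin genes passed over. Each dot is 1 mouse, bars are means of 3, and AE9a+miR-126 stands left of the normal controls; Il1a averages lie 6.73 apart and Car1 averages 5.32 apart in the other direction.

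Interleukin 1 signalling, in which IL-1 alpha or beta binds the receptor IL1R1 with its partner IL1RAP, had passing genes among its ligands, its receptors and the inflammasome. Of the 19 genes of the interleukin 1 family and inflammasome measured, 7 rose and 0 fell (36.8% passed, median 0.53). The receptor Il1r1 was at 9.0, 8.82 and 8.96 in AE9a+miR-126 mice, against 5.86, 5.37 and 5.34 in controls, a 10.6-fold difference (3.40 ± 0.37, adjusted p = 2.48e-07). Its partner Il1rap was at 8.98, 8.18 and 8.80, against 7.05, 7.34 and 7.03 in controls (1.51 ± 0.27, adjusted p = 0.000306). The inflammasome sensor Nlrp3 was at 9.82, 10.54 and 10.19, against 8.15, 8.27 and 7.60 in controls (2.18 ± 0.46, adjusted p = 0.00201). No leukaemic mouse overlapped a control in these genes. The inflammatory caspase gene Casp4 and the interleukin 36 gene Il1f6 with its receptor gene Il1rl2 completed the 7, with Il1a. Il1b, the ligand that inflammasomes process, lay 1.18 higher without passing, and the inflammasome genes Nlrc4, Casp1 and Pycard did not pass either.

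Cytokines and chemokines rose in part. Of 21 cytokine and growth factor genes, 8 rose and 0 fell (38.1% passed, median 0.42). Tnf, the main inflammatory cytokine of macrophages, was at 11.68, 12.48 and 12.06 in AE9a+miR-126 mice, against 9.30, 9.28 and 7.94 in controls, a 9.43-fold difference (3.24 ± 0.43, adjusted p = 7.8e-06). Tnfsf9, the ligand of the costimulatory receptor 4-1BB, was at 8.06, 9.998 and 8.90, against 5.28, 6.19 and 6.37 in controls (3.04 ± 0.45). Every leukaemic mouse was above every control in both genes. Hbegf, a ligand of the EGF receptor, rose by 1.97 ± 0.30 and Il23a, a subunit of interleukin 23, by 1.69 ± 0.29. The other 4 that rose were Il6, Il10, Clcf1 and Tgfb1. Without AE9a+miR-126 mouse 1, 2 or 3, or control 2 or 3, the count of 8 became 5 each time. Of 20 inflammatory chemokine genes, 5 rose and 0 fell (25% passed, median 0.92). Cxcl16 was at 10.56, 11.24 and 11.004 in AE9a+miR-126 mice, against 6.52, 6.30 and 6.73 in controls (adjusted p = 2.57e-07). Cxcl10, which draws in T cells, was at 8.22, 8.60 and 8.33, against 5.45, 5.33 and 5.52 in controls (2.96 ± 0.57). Ccl17 rose by 2.77 ± 0.36, Ccl3 by 1.59 ± 0.26 and Ccl22 by 1.38 ± 0.26. Those 5 genes made up all chemokines that passed; the neutrophil chemokines Cxcl2 and Cxcl3 lay 1.75 and 1.64 higher without passing.

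NF-kappaB is held in the cytoplasm by inhibitors of the IkappaB family, and it switches on these inhibitors and A20 (Tnfaip3) as its own brakes. Of 24 NF-kappaB targets and feedback inhibitors, 18 rose and 0 fell (75% passed, median 1.75), the highest passing share among the 45 lists examined. Lists and members were chosen with earlier results of these data known, so this rank is only a description. Tnfaip3 was at 10.79, 11.18 and 10.99 in AE9a+miR-126 mice, against 7.47, 8.10 and 7.44 in controls, a 9.95-fold difference (3.31 ± 0.33, adjusted p = 7.21e-08). Nfkbia, which encodes IkappaB alpha, was at 11.68, 11.81 and 11.81, against 9.07, 9.76 and 9.32 in controls (2.38 ± 0.24, adjusted p = 9.33e-08). Tnip3 was at 9.98, 10.13 and 10.01, against 5.81, 5.17 and 6.34 in controls (adjusted p = 1.05e-06). Leukaemic mice differed little from each other in these brakes, and their lowest value was above the highest control. Icam1, an adhesion molecule, was at 10.18, 10.82 and 10.32, against 7.38, 6.87 and 7.02 in controls (3.35 ± 0.40). Tnip1, Traf1, Bcl2a1a, Cd40, Sod2, Nfkb2, Nfkbie, Tnfaip2, Zc3h12a, Nfkbiz, Relb, Rel, Bcl3 and Nfkbib were the other members that rose. The 6 that did not pass were Nfkbid (1.33), Tnip2 (0.79), Cd83 (0.76), Birc3 (0.56), Birc2 (-0.07) and Ptgs2 (-0.14). In 21 of the 24 the groups did not overlap with leukaemic mice above, against 16% of all genes tested. Nfkbiz lost its call without AE9a+miR-126 mouse 2 (adjusted p = 0.0727) or control 3 (0.11).

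**Figure D2:**
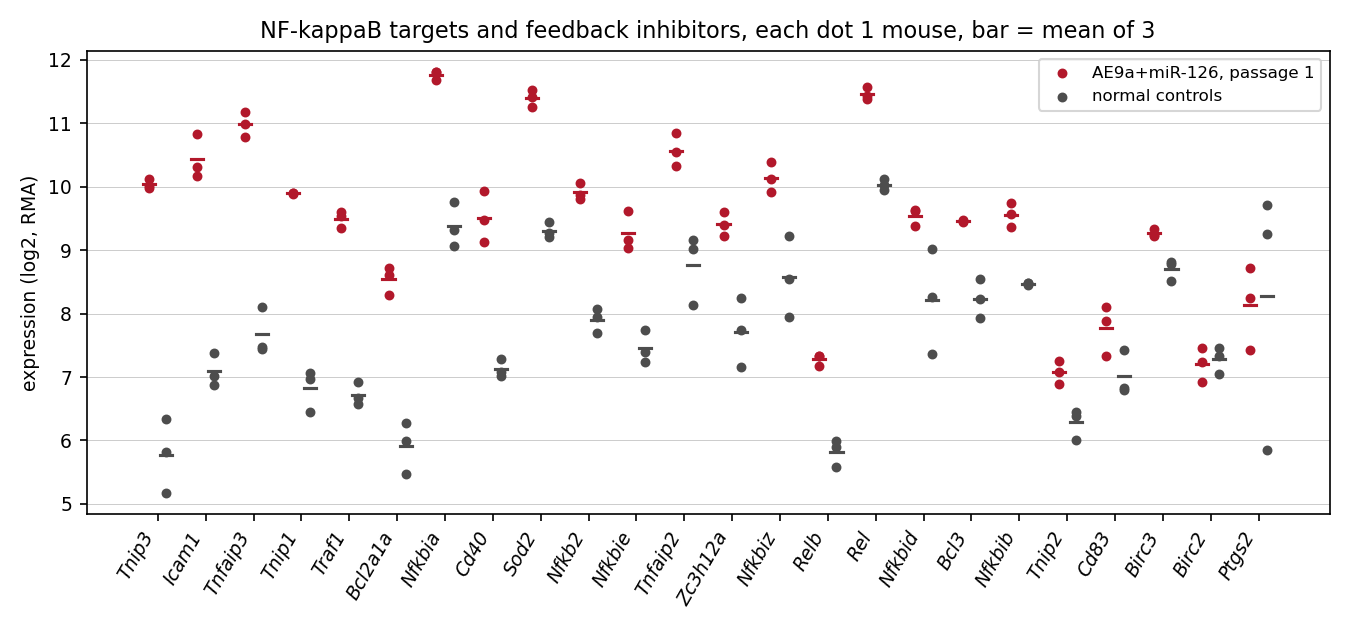
Expression (log2) of the 24 measured NF-kappaB targets and feedback inhibitors, ordered by their difference. Each dot is 1 mouse, bars are means of 3, AE9a+miR-126 left of normal controls; differences run from 4.26 for Tnip3 to -0.14 for Ptgs2.

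The promoters of 3 of these brakes are shown because the genes moved together. Each window runs from 250 bases before to 50 after the gene start (RefSeq, GRCm38.p6, 5′ to 3′ on the gene's strand), at chr10:19015361-19015660 (minus) for Tnfaip3, chr12:55492598-55492897 (minus) for Nfkbia and chr6:65590148-65590447 (plus) for Tnip3. Capitals mark matches to a kappaB-like motif of 10 letters, GGGANNNNCC, sought on both strands with overlapping matches counted at each start.
Tnfaip3: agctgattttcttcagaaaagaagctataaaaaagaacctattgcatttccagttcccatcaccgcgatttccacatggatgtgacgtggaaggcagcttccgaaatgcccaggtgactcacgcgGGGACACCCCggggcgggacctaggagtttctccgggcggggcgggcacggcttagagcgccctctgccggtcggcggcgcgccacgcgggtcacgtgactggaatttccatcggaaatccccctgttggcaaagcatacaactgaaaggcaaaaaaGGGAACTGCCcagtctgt
Nfkbia: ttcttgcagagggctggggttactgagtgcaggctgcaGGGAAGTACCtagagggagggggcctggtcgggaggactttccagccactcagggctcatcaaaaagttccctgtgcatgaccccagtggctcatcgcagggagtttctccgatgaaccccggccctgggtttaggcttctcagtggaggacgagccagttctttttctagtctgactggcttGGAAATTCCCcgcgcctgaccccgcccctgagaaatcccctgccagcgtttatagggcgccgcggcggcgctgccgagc
Tnip3: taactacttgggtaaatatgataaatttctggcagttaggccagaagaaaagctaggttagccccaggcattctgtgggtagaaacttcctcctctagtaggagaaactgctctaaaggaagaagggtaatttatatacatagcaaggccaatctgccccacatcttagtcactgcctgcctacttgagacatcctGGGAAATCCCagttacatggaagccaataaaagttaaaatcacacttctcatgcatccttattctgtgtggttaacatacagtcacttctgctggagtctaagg
Tnfaip3 and Nfkbia held 2 matches each in these windows and Tnip3 held 1, while the Icam1 window held 0. A second Tnfaip3 window, at chr10:19011914-19012213 (minus), is not shown and held 1. A match was found for 9 of the 20 NF-kappaB list genes that have a window (45%), for 255 of 792 genes that rose (32.2%), for 243 of 913 that fell (26.6%) and for 25.9% of the 16990 measured genes with a window. In these shares a gene counts if any of its windows held a match. Over all 32851 windows of the same length in the table, each counted singly, the share was 20.7%, which is therefore not a like measure. A match describes the letters alone.

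Genes that break down and bind matrix included several of the largest rises. Of 19 matrix metalloproteinases and inhibitors, 6 rose and 0 fell (31.6% passed, median 0.09). Mmp13 was at 8.83, 10.001 and 9.33 in AE9a+miR-126 mice, against 4.11, 3.99 and 4.39 in controls, a 37.3-fold difference (adjusted p = 1.18e-05). Mmp19 rose by 3.01 ± 0.49, the inhibitor Timp1 by 2.52 ± 0.44 and Mmp10 by 1.20 ± 0.26, with no overlap between the groups. Mmp9, the gelatinase of neutrophil granules, was at 10.75, 7.98 and 10.31, against 12.13, 12.10 and 11.93 in controls, and did not pass (-2.37 ± 0.88, adjusted p = 0.0887). Of 17 genes of the plasminogen system and clotting, 9 rose and 1 fell (58.8% passed, median 0.93). Serpinb2 was at 8.33, 8.48 and 8.20 in AE9a+miR-126 mice, against 4.31, 3.73 and 3.85 in controls (adjusted p = 0.000136). The clotting factor genes F7 and F10 rose by 2.13 ± 0.42 and 1.66 ± 0.25, and the urokinase gene Plau and its receptor gene Plaur were among the others that rose. The gene that fell was Serpinb1a (-1.68), whose call was lost without AE9a+miR-126 mouse 2 or 3 or any 1 of the controls. Of 19 matrix and adhesion genes, 7 rose and 2 fell (47.4% passed, median 0.64). Itga5, the alpha chain of the fibronectin receptor, was at 10.96, 11.60 and 11.22 in AE9a+miR-126 mice, against 7.89, 7.80 and 7.84 in controls (3.42 ± 0.51, adjusted p = 3.96e-05). The hyaluronan receptor Cd44 rose by 1.72 ± 0.32, and Vcam1, which holds blood cells in the marrow, fell by 1.53 ± 0.28. The other fall was that of Sparc, and 1 of the 2 falls was lost without AE9a+miR-126 mouse 3 or control 3.

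Stress and feedback genes rose in smaller numbers. Of 22 p53 target genes, 5 rose and 0 fell (22.7% passed, median 0.15). Cdkn1a, the p21 inhibitor of cyclin-dependent kinases, was at 10.55, 11.47 and 11.08 in AE9a+miR-126 mice, against 7.15, 7.54 and 7.87 in controls, an 11.4-fold difference (3.51 ± 0.31, adjusted p = 8.09e-09). Perp rose by 3.11 ± 0.51, the death receptor Fas by 1.84 ± 0.46 and Mdm2, which degrades p53, by 1.55 ± 0.33; Sesn2 was the fifth. Of 16 ERK feedback genes, 4 rose and 0 fell (25% passed, median 0.15). They were Errfi1, at 10.24, 10.94 and 10.53 in AE9a+miR-126 mice, against 5.70, 6.03 and 6.29 in controls, Dusp5, a nuclear phosphatase of ERK (2.22 ± 0.31), Spred1 (1.96 ± 0.37) and Dusp2 (1.36 ± 0.42). The Spry genes, inhibitors of receptor tyrosine kinase signalling, lay within 0.30 of the controls. Dusp2 lost its call without AE9a+miR-126 mouse 2 (adjusted p = 0.175) or 3 (0.0938) or control 1 (0.115) or 3 (0.116).

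Of 22 immediate early transcription factors, 5 rose and 1 fell (27.3% passed, median 0.54). Ier3 was at 11.35, 11.64 and 11.55 in AE9a+miR-126 mice, against 9.27, 9.90 and 9.03 in controls (2.11 ± 0.31, adjusted p = 2.63e-05). Fos fell by 2.01 ± 0.52, at 6.80, 7.49 and 7.13 against 9.25, 9.40 and 8.80 in controls, while Junb rose by 0.86 ± 0.25 and Ier5 by 1.12 ± 0.33. The count of 5 was 2 without AE9a+miR-126 mouse 1 or 2, 1 without mouse 3, 3 without control 1 and 1 without control 3, and Fos lost its call without mouse 1 (adjusted p = 0.0533). Junb lost its call without AE9a+miR-126 mouse 2 or 3 or control 3 (highest adjusted p = 0.163), and Ier5 without AE9a+miR-126 mouse 1, 2 or 3 or control 3 (highest 0.156). Of 19 genes of the ATF4 and unfolded protein responses, 7 rose and 0 fell (36.8% passed, median 0.55), 4 of them without AE9a+miR-126 mouse 1 and 4 without mouse 2. The chaperone Hspa5 rose by 1.13 ± 0.21, Herpud1 by 1.25 ± 0.28, the transcription factor Xbp1 by 0.93 ± 0.19 and Atf4 by 0.70 ± 0.16. Atf4 lost its call after cyclic loess normalization (adjusted p = 0.0658). Of 17 genes of oxidative stress and iron handling, 6 rose and 2 fell (47.1% passed, median 0.36). Sqstm1, the autophagy receptor p62, was at 11.82, 12.01 and 11.90 in AE9a+miR-126 mice, against 9.94, 9.86 and 9.58 in controls (2.11 ± 0.23, adjusted p = 2.86e-07). Thioredoxin reductase (Txnrd1) and sulfiredoxin (Srxn1) rose by 1.66 ± 0.31 and 1.46 ± 0.28. The transferrin receptor Tfrc fell by 1.66 ± 0.36 and the iron exporter Slc40a1 was the other that fell. Only 3 of the 6 rises passed without control 3, and 1 of the 2 falls without AE9a+miR-126 mouse 2 or 3 or any 1 of the controls.

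Among myeloid lists, several macrophage receptors rose, and no granule gene did. Of 31 monocyte and macrophage genes, 5 rose and 2 fell (22.6% passed, median 0.17). Cd14, the lipopolysaccharide coreceptor, was at 11.03, 10.44 and 10.76 in AE9a+miR-126 mice, against 6.76, 7.98 and 7.27 in controls (3.40 ± 0.54, adjusted p = 9.31e-05). The scavenger receptor Msr1 was at 9.61, 10.65 and 10.24, against 7.59, 7.06 and 7.76 in controls (2.70 ± 0.57). Dab2, an endocytic adaptor, was at 8.02, 10.47 and 9.64, against 5.95, 5.74 and 5.30 in controls (3.71 ± 0.81). The groups did not overlap, and mouse 1 was lowest among the leukaemic mice for Msr1 and Dab2. Gpnmb rose by 3.03 ± 0.67 and Cd163 by 2.28, and the 2 that fell were Fcgr4 and Cx3cr1, 1 of which was lost without AE9a+miR-126 mouse 2 or 3 or control 3. The macrophage markers Adgre1, C1qa, C1qb, Cd163 and Mertk averaged 6.31 to 7.83 in AE9a+miR-126 mice and 6.38 to 6.81 in controls, with 1 of 5, Cd163, higher. The part of macrophages in these results was not tested.

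Of 24 pattern recognition receptors, 7 rose and 2 fell (37.5% passed, median 0.42). Nod2, a sensor of bacterial cell wall, was at 8.14, 8.53 and 8.10 in AE9a+miR-126 mice, against 6.29, 6.28 and 6.17 in controls (2.01 ± 0.31, adjusted p = 5.62e-05). Tlr2 rose by 1.43 ± 0.29 and Tlr5, the flagellin receptor, fell by 1.58 ± 0.24. The 7 rises became 4 without AE9a+miR-126 mouse 1 or control 1, and the other fall, that of Ddx58, was lost without AE9a+miR-126 mouse 2 (adjusted p = 0.153) or control 1 (0.0523). Of 12 genes of macrophage arginine, nitric oxide and itaconate metabolism, 2 rose and 0 fell (16.7% passed, median 0.70). Acod1, which makes itaconate, was at 11.42, 11.11 and 11.34 in AE9a+miR-126 mice, against 7.34, 9.20 and 6.09 in controls (3.75 ± 0.83, adjusted p = 0.0033). Gch1, which begins tetrahydrobiopterin synthesis, rose by 2.14 ± 0.38. Acod1 was steady among the leukaemic mice and ranged widely among the controls.

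Of 18 neutrophil surface receptors, 3 rose and 0 fell (16.7% passed, median -0.54). Clec4e, a receptor for mycobacterial lipid, was at 11.94, 12.28 and 12.11 in AE9a+miR-126 mice, against 10.13, 10.39 and 10.21 in controls (1.86 ± 0.43, adjusted p = 0.00411). The platelet-activating factor receptor Ptafr rose by 2.01 ± 0.49 and the Fc receptor Fcgr3 by 0.88 ± 0.25; Fcgr3 lost its call without AE9a+miR-126 mouse 1 (adjusted p = 0.0835) or 3 (0.0747) or control 1 (0.0725) or 2 (0.0512). Of 18 neutrophil secondary granule and S100 genes, 0 passed in limma (median -0.83), and 5 were lower at an unadjusted p under 0.05, which is 27.8% of the list against 21.7% of all genes. Their mean level was 11.01, 9.68 and 10.77 in AE9a+miR-126 mice, against 11.34, 11.46 and 11.15 in controls. Mouse 2 lay more than 1 below its group and the other leukaemic mice less than 1 below the controls. Of 16 genes on the primary granule list, 0 rose and 4 fell (25% passed, median -0.85). Fcnb was at 8.17, 7.09 and 7.80 in AE9a+miR-126 mice against 11.15, 11.11 and 10.17 in controls, and the serine protease Prss57 fell by 2.37 ± 0.38. The others were Nkg7, which is counted again among NK and cytotoxic cell genes, and Gfi1 (-1.35 ± 0.34), a repressor of transcription and not a granule protein. Gfi1 lost its call without control 1 (adjusted p = 0.0602). Of 9 genes on the stefin A list, 2 rose and 0 fell (22.2% passed, median 1.93). Stefins inhibit cysteine proteases, and the genes of the stefin A cluster share closely similar sequence. Cstb, which is on the list but encodes stefin B and lies outside that cluster, rose by 2.21 ± 0.24. It was at 9.68, 9.59 and 9.68 in AE9a+miR-126 mice against 7.49, 7.42 and 7.40 in controls. Csta3 rose by 2.54 ± 0.75, and its call was lost without AE9a+miR-126 mouse 2 (adjusted p = 0.155) or 3 (0.0957) or without control 1 (0.0617), 2 (0.064) or 3 (0.081).

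Red cell genes fell together. Of 21 erythroid genes, among them those of the membrane and the carbonic anhydrases but no globin, 0 rose and 15 fell (71.4% passed, median -1.64), and in 18 of 21 every leukaemic mouse was below every control, against 14.8% of all genes tested. Rhag was at 4.49, 4.64 and 4.64 in AE9a+miR-126 mice, against 8.54, 7.57 and 8.20 in controls. Aqp1, the water channel of red cells, was at 5.62, 6.22 and 5.65, against 8.91, 8.34 and 8.25 in controls (-2.67 ± 0.20, adjusted p = 4.91e-10). Slc4a1, the anion exchanger band 3, was at 4.91, 5.20 and 5.21, against 7.91, 7.38 and 6.45 in controls (-2.14 ± 0.28). In each of these genes the leukaemic mice lay below all controls and closer to each other than the controls did. Hemgn fell by 1.64 ± 0.21. Of 13 heme synthesis enzymes and mitochondrial iron importers, 0 rose and 6 fell (46.2% passed, median -0.57). Alad, the second enzyme of the pathway, was at 6.88, 7.08 and 7.10, against 8.82, 8.34 and 8.74 in controls (-1.62 ± 0.35, adjusted p = 0.0028). Cpox and Ppox, which act late in it, fell by 1.81 ± 0.47 and 1.34 ± 0.30, and the mitochondrial transporter Abcb10 by 1.32 ± 0.37. The 6 falls became 3 without AE9a+miR-126 mouse 1 and 2 without control 1; Abcb10 lost its call in both (adjusted p = 0.0758 and 0.0542) and Cpox without control 1 (0.05). In these sorted bulk samples, fewer red cell precursors and less RNA per cell cannot be told apart, and this holds for each cell type named from here on. Genes that share a probe set with other symbols were not analysed here.

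Of 21 genes of mast cells, basophils and eosinophils, 0 rose and 9 fell (42.9% passed, median -1.10). Mcpt8 was at 6.12, 5.72 and 6.0 in AE9a+miR-126 mice, against 9.79, 9.18 and 9.44 in controls, an 11.5-fold difference (adjusted p = 1.64e-05). Prss34 was at 5.75, 5.29 and 5.63, against 8.74, 9.24 and 8.39 in controls (adjusted p = 9.21e-10). The eosinophil granule genes Prg2 and Epx fell by 2.53 ± 0.27 and 2.21 ± 0.31. The groups did not overlap in these 4 basophil and eosinophil genes. The mast cell tryptase Tpsab1 lay 0.13 higher and the mast cell protease Mcpt4 0.08 lower, and neither passed. Of 18 megakaryocyte and platelet genes, 2 rose and 6 fell (44.4% passed, median -0.53). Clec1b, the podoplanin receptor of platelets, fell by 1.11 ± 0.18, the integrin chain Itgb3 by 1.75 ± 0.31 and the glycoprotein gene Gp9 by 0.87 ± 0.17. The 6 falls became 3 without AE9a+miR-126 mouse 3, control 1 or control 3. The 2 that rose were Plek and Selp, which encodes P-selectin of platelets and endothelium. Selp was at 9.53, 10.54 and 9.95 in AE9a+miR-126 mice, against 6.56, 7.16 and 7.32 in controls (2.99 ± 0.37, adjusted p = 2.21e-06).

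B cell genes fell by a median of 1.82 on the log2 scale. Of 23 measured, 0 rose and 14 fell (60.9% passed). Fcer2a, the low-affinity IgE receptor CD23, was at 5.66, 4.47 and 4.58 in AE9a+miR-126 mice, against 7.98, 7.54 and 6.81 in controls (-2.54 ± 0.30, adjusted p = 1.41e-06). Cr2, a complement receptor, was at 4.82, 4.28 and 4.39, against 7.20, 7.23 and 6.66 in controls (-2.53 ± 0.27). Cd22 was at 7.09, 5.71 and 6.49, against 9.19, 8.97 and 8.12 in controls (-2.33 ± 0.30). The mean level of the list was 6.52, 5.29 and 6.16 in AE9a+miR-126 mice, against 7.91, 7.37 and 7.24 in controls, so that mouse 2 was again lowest. Fcrla fell by 2.16 ± 0.27. Of 16 T cell genes, 0 rose and 3 fell (18.8% passed, median -0.57): Cd3g (-1.94 ± 0.50), Cd8b1 (-1.34 ± 0.40) and Cd4 (-0.95 ± 0.30). None of these T cell calls held without AE9a+miR-126 mouse 2 (adjusted p = 0.122 for Cd3g, 0.186 for Cd8b1 and 0.0886 for Cd4) or without control 1 (0.0774, 0.136 and 0.297 in the same order). Of 15 NK and cytotoxic cell genes, 0 rose and 5 fell (33.3% passed, median -0.39). Nkg7, a granule membrane protein, was at 8.01, 7.32 and 7.88 in AE9a+miR-126 mice, against 10.49, 10.10 and 9.83 in controls (-2.40 ± 0.41, adjusted p = 0.000194). The receptors Klrk1 and Klrd1 fell by 1.51 ± 0.27 and 1.20 ± 0.22, and Ncr1 by 1.43 ± 0.36, which lost its call without control 1 (adjusted p = 0.122). Of 21 MHC class II and dendritic cell genes, 0 rose and 7 fell (33.3% passed, median -0.79). Ly6d, a marker of lymphoid progenitors, fell by 2.63 ± 0.22, the B cell chaperone H2-Ob by 1.72 ± 0.33, Siglech of plasmacytoid dendritic cells by 1.33 ± 0.30 and Ciita, the activator of MHC class II genes, by 0.94 ± 0.17.

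The markers used to check the sort moved with these lists. Erythroid markers averaged 4.72 to 4.93 in AE9a+miR-126 mice and 6.88 to 7.77 in controls, and 3 of 3 fell. B cell markers averaged 5.54 to 7.54 and 8.19 to 9.07 in that order, with 4 of 4 lower, and basophil and mast cell markers 5.13 to 6.02 and 8.12 to 8.73, with 3 of 4 lower. T cell markers averaged 5.56 to 6.53 in AE9a+miR-126 mice and 6.79 to 7.47 in controls (1 of 4 lower), NK markers 4.22 to 4.48 and 4.58 to 5.90 (2 of 3 lower) and megakaryocyte markers 5.68 to 5.92 and 6.41 to 7.09 (2 of 3 lower). The 6 markers of stroma and endothelium averaged 5.29 to 5.47 in AE9a+miR-126 mice and 5.49 to 5.74 in controls. Of these 1 fell, and Lepr was below the 25th percentile on all 6 arrays. How far these cell types entered the other results was not tested.

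**Figure D3:**
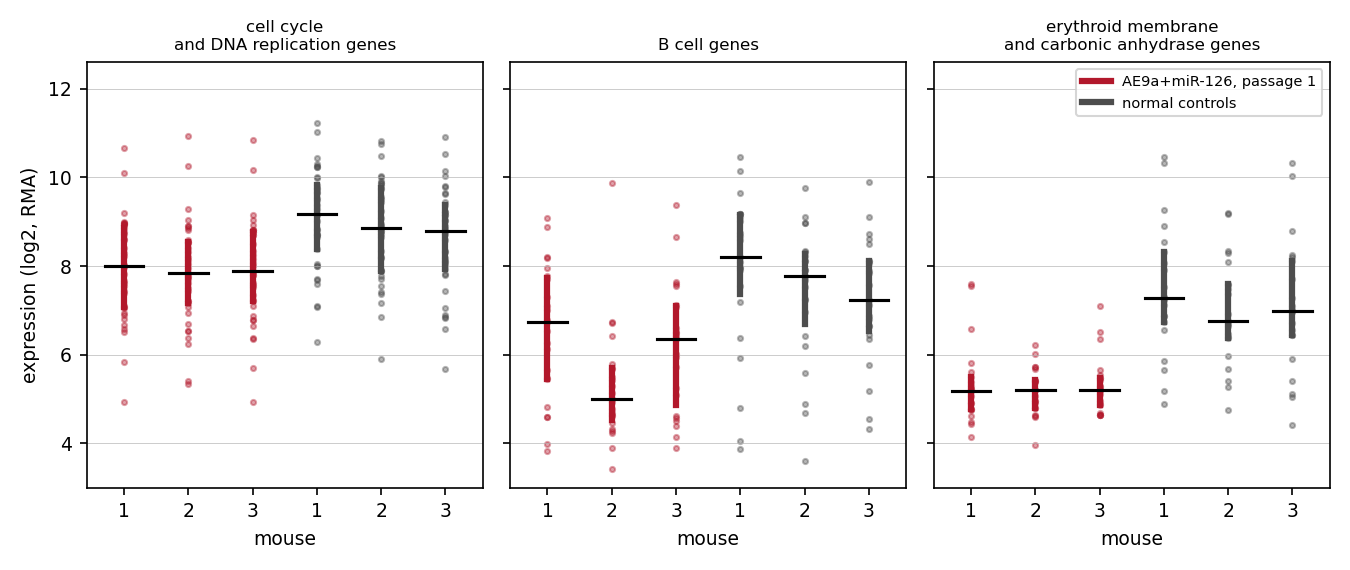
Expression (log2) of the cell cycle (37 genes), B cell (23) and erythroid (21) lists in each mouse, AE9a+miR-126 mice left of normal controls. Dots are genes, thick bars span the middle 50% and black lines are medians; each AE9a+miR-126 median lies below each control median.

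Genes of proliferation were lower in the leukaemic mice. Of 37 cell cycle and DNA replication genes, 0 rose and 10 fell (27% passed, median -1.02). In 28 of 37 every leukaemic mouse was below every control, against 14.8% of all genes tested. Bub1b, of the spindle checkpoint, was at 6.82, 6.54 and 6.65 in AE9a+miR-126 mice, against 8.72, 8.80 and 8.34 in controls (-1.95 ± 0.40, adjusted p = 0.0015). Cdc20, an activator of the anaphase-promoting complex, was at 7.56, 7.61 and 7.61, against 9.18, 8.86 and 9.02 in controls (-1.43 ± 0.33). Thymidine kinase (Tk1) fell by 1.43 ± 0.25 and cyclin E1 (Ccne1) by 0.82 ± 0.18. Mitotic genes, Plk1, Ccna2, Aurkb, Birc5, Kif20a and Cenpf, made up the rest of the 10. The count was 6 without AE9a+miR-126 mouse 2 or 3 and 5 without control 1, and it was 20 after cyclic loess, 18 after quantile normalization, 21 with first-passage arrays alone and 29 with array weights. Of 31 stem and progenitor genes, 0 rose and 7 fell (22.6% passed, median -0.28), 3 of them without AE9a+miR-126 mouse 2, 3 without control 1 and 4 without control 2. Hoxa9 was at 5.24, 4.56 and 4.73 in AE9a+miR-126 mice, against 5.43, 5.76 and 6.04 in controls (-0.90 ± 0.18, adjusted p = 0.0012). Myc was at 7.0, 6.98 and 6.98, against 8.46, 8.17 and 8.28 in controls (-1.32 ± 0.34, adjusted p = 0.00971). Lmo2, a cofactor of early blood formation, fell by 1.13 ± 0.25, and Prom1 by 1.82 ± 0.49, a call lost without AE9a+miR-126 mouse 2 (adjusted p = 0.158) or control 1 (0.0633) or 2 (0.0884).

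With the deposited values, ribosome biogenesis and respiratory chain genes passed at shares below the 9.73% of all genes, and glycolysis and lysosome genes at higher ones. After cyclic loess 5 of 21 ribosome biogenesis genes, 5 of 20 respiratory chain genes and 7 of 20 glycolysis genes fell, against 1716 of all 22180. At an unadjusted p under 0.05 in limma the share was 33.3% for ribosome biogenesis and 15% for respiratory chain genes, against 21.7% of all genes. The low shares of these 2 lists thus depended on the setting. Of 21 ribosome biogenesis genes, 0 rose and 1 fell, Ppan (4.76% passed, median -0.25), and Ppan lost its call without AE9a+miR-126 mouse 1 (adjusted p = 0.0587) or control 2 (0.0633) or 3 (0.133). Of 20 glycolysis and hypoxia genes, 3 rose and 3 fell (30% passed, median -0.36). The glucose transporter Slc2a1 was at 10.54, 10.67 and 10.50 in AE9a+miR-126 mice, against 9.0, 9.78 and 9.02 in controls (1.31 ± 0.23, adjusted p = 0.000323), and Hif1a rose by 0.93 ± 0.22 and the phosphofructokinase Pfkp by 0.98 ± 0.26; Pfkp lost its call without AE9a+miR-126 mouse 2 or control 1 (highest adjusted p = 0.0724). Slc2a3, Slc16a3 and Pdk1 fell; of these 3 calls, 1 was left without AE9a+miR-126 mouse 2, 0 without mouse 3, 0 without control 1 and 1 without control 2. Of 20 respiratory chain and TCA cycle genes, 0 rose and 1 fell, Sdha (5% passed, median -0.26). Sdha was also the 1 of 9 housekeeping genes that fell (11.1% passed, median -0.02), by 0.87 ± 0.24, and it lost its call without AE9a+miR-126 mouse 1 (adjusted p = 0.0588) or 3 (0.057) or control 1 (0.065). Of 14 cholesterol synthesis genes, 0 passed in limma (median -0.16), and at an unadjusted p under 0.05 there were 1 higher and 3 lower, 28.6% against the 21.7% of all genes. Of 20 lysosome genes, 3 rose and 1 fell (20% passed, median 0.35): Gla by 1.59 ± 0.30, the cholesterol exporter Npc1 by 1.67 ± 0.44 and Ctsz by 0.81 ± 0.21, while Ctse fell. Npc1 lost its call without control 2 (adjusted p = 0.0525) and Ctsz without AE9a+miR-126 mouse 2 (0.0598) or after cyclic loess normalization (0.0686). Of 19 genes of stroma, bone and endothelium, 0 rose and 2 fell (10.5% passed, median -0.04). Cxcl12, the chemokine that retains cells in marrow, was at 5.09, 5.25 and 5.21 in AE9a+miR-126 mice, against 6.85, 6.02 and 7.0 in controls (-1.44 ± 0.17, adjusted p = 1.55e-06). The other was Ibsp, lost without AE9a+miR-126 mouse 1 (adjusted p = 0.0663) or 2 (0.081) or control 1 (0.156). Of 8 pan-leukocyte genes, 0 passed (median -0.02), and 0 had an unadjusted p under 0.05.

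Runx1 and Runx1t1, the partners of the fusion, were both higher by small amounts. Runx1 was at 9.98, 10.11 and 9.97 in AE9a+miR-126 mice, against 9.35, 9.22 and 9.20 in controls (0.77 ± 0.25, adjusted p = 0.0422). Runx1t1, the mouse ETO gene, was at 5.92, 6.01 and 6.03, against 5.48, 5.08 and 5.47 in controls (0.64 ± 0.20, adjusted p = 0.0347). All leukaemic mice stood above all controls in both, yet the calls rest on the full set of mice: adjusted p-values for Runx1 were 0.0857, 0.137 and 0.0943 without AE9a+miR-126 mouse 1, 2 and 3 and 0.0744, 0.103 and 0.114 without control 1, 2 and 3. For Runx1t1 they were 0.0648, 0.101 and 0.107 without AE9a+miR-126 mouse 1, 2 and 3 and 0.0504 and 0.167 without control 1 and 2. The call of Runx1 was also lost with a trended prior (adjusted p = 0.0559) and that of Runx1t1 after quantile normalization (0.0553). Where in these transcripts the probes lie, and so whether they read the fusion, is not given in the files. These were the 2 of 6 runt and ETO family genes that passed (median 0.13). Of 10 genes reported as markers of t(8;21) leukaemia in patients, 2 rose and 3 fell (50% passed, median -0.02). Cav1, caveolin, was at 6.81, 7.66 and 6.92 in AE9a+miR-126 mice, against 3.90, 3.66 and 4.03 in controls (3.27 ± 0.31, adjusted p = 3.41e-08). Its control levels lay under the 25th percentile of the arrays, where the size of a fold is uncertain. Jup, the junction protein gamma-catenin, rose by 1.91 ± 0.39 and Pax5, a B cell factor, fell by 1.22 ± 0.22. Kit and the adhesion molecule Ncam1 fell by 1.46 ± 0.43 and 1.41 ± 0.44. The 3 falls became 1 without control 1 or control 2, and Kit also lost its call without AE9a+miR-126 mouse 2 (adjusted p = 0.257) and Ncam1 without mouse 1 (0.18) or 3 (0.0971).

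Messenger RNAs reported as targets of miR-126 did not move one way. Of 28 measured, 6 rose and 4 fell (35.7% passed, median 0.20). Spred1, an inhibitor of RAS signalling and a target in endothelium, was at 8.73, 9.01 and 8.88 in AE9a+miR-126 mice, against 6.77, 6.65 and 7.32 in controls, a 3.88-fold difference (1.96 ± 0.37, adjusted p = 0.000632). Errfi1 rose 23.6-fold, and Adam9, Tsc1, Slc7a5 and Camsap1 also rose. The falls were those of Vcam1, Cxcl12, Hoxa9 and Pik3r2. Fzd7, a Wnt receptor, was at 5.83, 5.94 and 5.89 in AE9a+miR-126 mice, against 5.58, 5.35 and 6.04 in controls, and did not pass (0.23 ± 0.24, adjusted p = 0.672). Egfl7 was the 1 measured gene of the host locus, and 0 of 1 passed. These are levels of messenger RNA in AE9a leukaemia against normal marrow, so the fusion and miR-126 differ together between the groups.

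Interferon genes passed at shares near the 9.73% of all genes. Of 24 type I interferon response genes, 1 rose and 2 fell (12.5% passed, median -0.24): Cxcl10 rose, and Cmpk2 (-1.61 ± 0.38) and the RNA sensor Ddx58 (-1.27 ± 0.33) fell, Ddx58 not without AE9a+miR-126 mouse 2 or control 1, as given above. Cmpk2 was at 8.20, 7.40 and 7.87 in AE9a+miR-126 mice, against 9.61, 9.45 and 9.23 in controls. Of 12 GTPases induced by interferon gamma, 1 rose and 0 fell (8.33% passed, median -0.12). It was Gbp5, at 6.93, 8.69 and 8.03 in AE9a+miR-126 mice, against 4.74, 4.80 and 5.16 in controls (2.99 ± 0.47, adjusted p = 7.02e-05). Of 18 prostaglandin and leukotriene genes, 1 rose and 2 fell (16.7% passed, median -0.23). The prostaglandin E synthase Ptges rose by 1.31 ± 0.25, and Pla2g4a, which frees arachidonic acid, and the lipoxygenase Alox15 fell by 1.75 ± 0.22 and 1.41 ± 0.20.

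**Figure D4:**
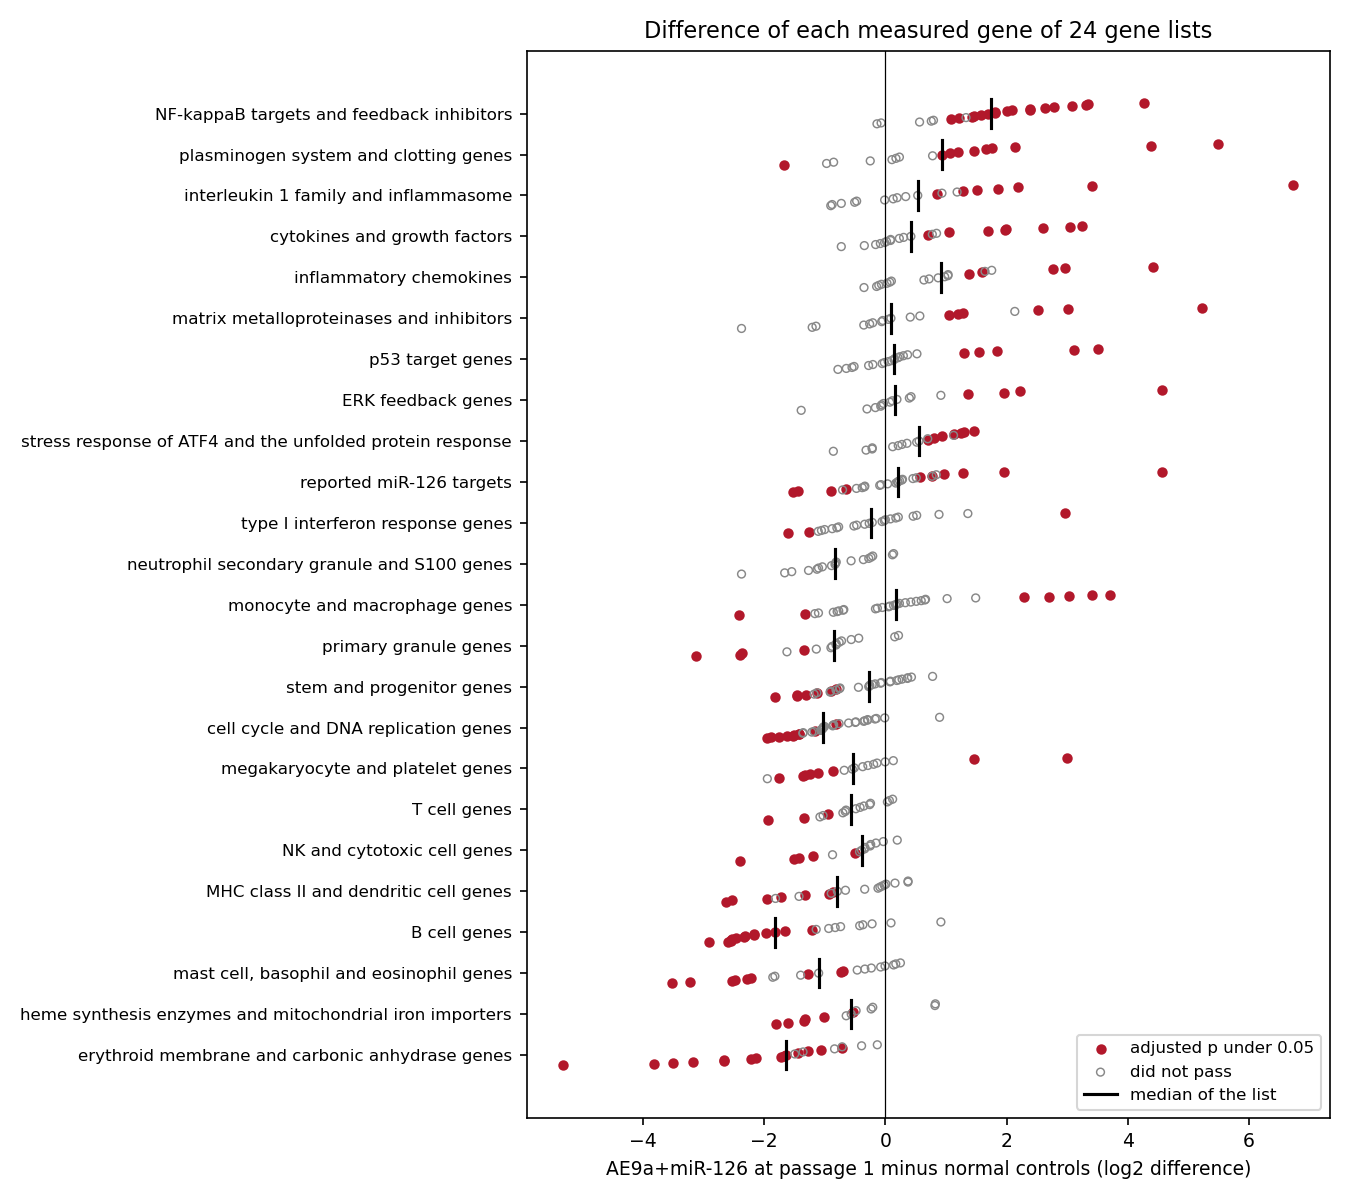
Log2 difference, AE9a+miR-126 minus normal controls, of each measured gene in 24 of the lists. Filled dots passed at an adjusted p under 0.05, open dots did not, and vertical bars are list medians, from 1.75 for NF-kappaB targets to -1.82 for B cell genes.

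Set against AE9a alone at the first passage, few genes differed. Only 7 of 22180 genes passed (0.0316%), 6 higher (0.0271%) and 1 lower (0.00451%) in AE9a+miR-126, while 1165 had an unadjusted p under 0.05. Of the passing genes 4 of 7 were higher after cyclic loess and 4 of 6 after quantile normalization. Tnfsf9 was at 8.06, 9.998 and 8.90 in AE9a+miR-126 mice, against 5.85, 6.26 and 5.88 in AE9a mice (2.98 ± 0.45, adjusted p = 0.00259). The Mir222 probe set was at 6.82, 8.68 and 7.79, against 4.56, 5.57 and 5.38 in AE9a mice (2.59 ± 0.37, adjusted p = 0.00222). Selp was at 9.53, 10.54 and 9.95, against 7.83, 8.11 and 7.89 in AE9a mice (2.06 ± 0.37, adjusted p = 0.0142). The groups did not overlap, and AE9a+miR-126 mouse 2 was highest in each. Cav1 rose by 1.96 ± 0.31, the metallothionein Mt2 by 1.62 ± 0.26 and Sele, E-selectin, by 0.96 ± 0.17. Fam167a fell by 1.16 ± 0.21, at 6.82, 5.68 and 6.37 in AE9a+miR-126 mice against 7.06, 7.93 and 7.35 in AE9a mice. Without AE9a+miR-126 mouse 1 the count was 57 and without mouse 3 it was 3. Errfi1 was at 10.24, 10.94 and 10.53 in AE9a+miR-126 mice, against 9.73, 9.79 and 9.05 in AE9a mice, and Spred1 at 8.73, 9.01 and 8.88, against 7.95, 8.16 and 7.63. Neither passed (1.05 ± 0.52 with an adjusted p of 0.96, and 0.96 ± 0.37 with an adjusted p of 0.757).

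Set against miR-126KO+AE9a, 129 genes passed (0.582%), 33 higher (0.149%) and 96 lower (0.433%) in AE9a+miR-126. Of the 24 type I interferon genes measured, 13 were lower than in the knockout arm and 0 were higher (median -1.76). Usp18, an interferon-induced protease added here after its values were seen, was at 6.85, 6.48 and 6.58 in AE9a+miR-126 mice, against 10.43, 11.21 and 10.22 in miR-126KO+AE9a mice (-3.98 ± 0.48, adjusted p = 1.57e-05). Oas1g, which senses double-stranded RNA, was at 5.99, 4.26 and 5.14, against 9.59, 10.39 and 7.88 in miR-126KO+AE9a mice (-4.15 ± 0.62). Fcgr1, the high-affinity IgG receptor, was at 5.95, 5.15 and 5.91, against 10.03, 10.34 and 8.82 in miR-126KO+AE9a mice (-4.06 ± 0.45, adjusted p = 9.08e-06). None of the AE9a+miR-126 mice overlapped the knockout arm in these genes. Tph1, which begins serotonin synthesis, was at 4.59, 5.06 and 4.49, against 9.27, 9.01 and 9.99 in miR-126KO+AE9a mice (-4.71 ± 0.67), and the mast cell protease Mcpt1 at 3.13, 3.36 and 3.24, against 8.20, 8.17 and 6.24 (-4.29 ± 0.51). Car1 was at 4.15, 4.95 and 4.90, against 8.55, 9.39 and 9.61 in miR-126KO+AE9a mice (-4.51 ± 0.69, adjusted p = 0.000429). Car1 and Mcpt1, of red cells and mast cells, were thus low in all AE9a+miR-126 mice and high in all knockout mice. AE9a mice averaged 4.90 for Car1, 2.98 for Mcpt1 and 4.87 for Tph1. Their averages were 4.22 for Oas1g, 5.74 for Fcgr1 and 6.76 for Usp18. None of these genes passed between AE9a+miR-126 and AE9a, so low levels were not particular to AE9a+miR-126. Normal controls averaged 9.99 for Car1 and 3.33 for Mcpt1. Tnfsf9 was higher by 2.40 ± 0.45, Ncam1 by 2.10 ± 0.44, Nfkbiz by 1.90 ± 0.43, Selp by 1.82 ± 0.37 and Shisa2 by 1.64 ± 0.36. Passed over by the naming rule were the predicted gene BC018473, lower by 5.36 on the log2 scale, the probe sets of Mir221 (2.78) and Mir222 (2.51), and 5 immunoglobulin genes among the 33 higher ones, the largest Ighg3 (3.97) and Igkv4-59 (3.27). The count was 61 without AE9a+miR-126 mouse 3, 76 without miR-126KO+AE9a mouse 1 and 55 without mouse 2, and 41 of the 129 genes also passed against normal controls.

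**Figure D5:**
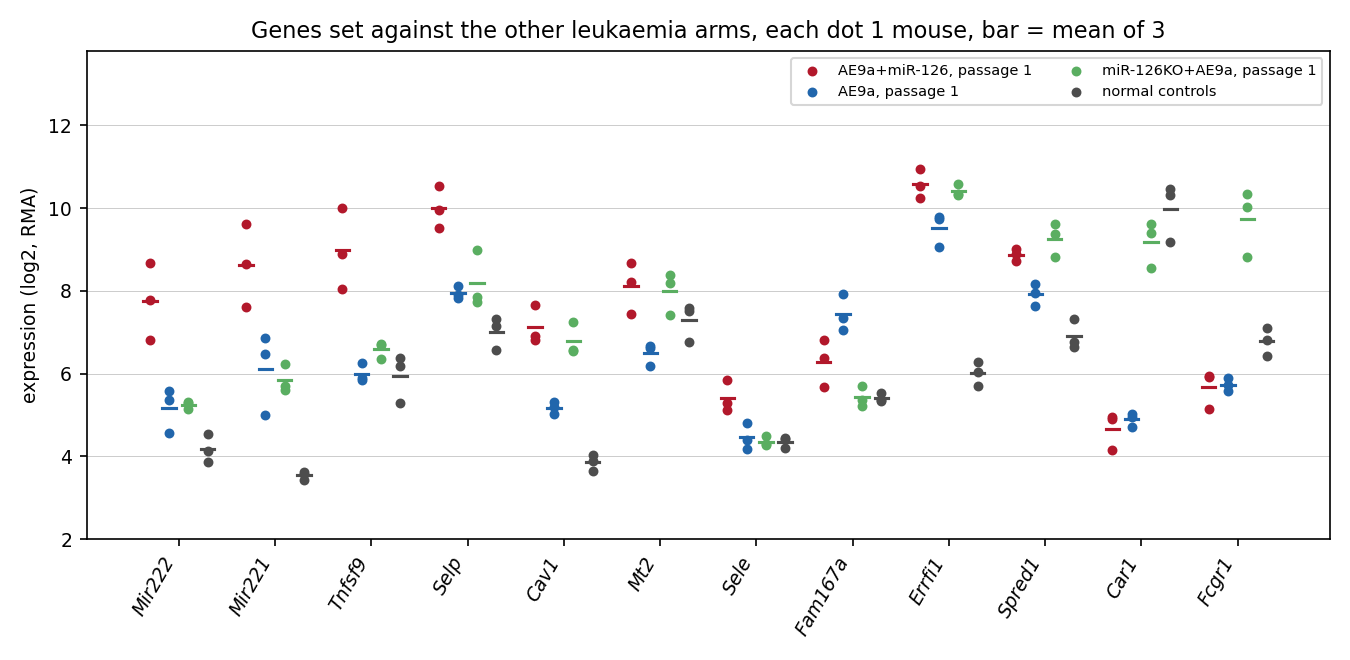
Expression (log2) of 12 genes or probe sets in AE9a+miR-126, AE9a, miR-126KO+AE9a and normal control mice, from left to right. Each dot is 1 mouse and bars are means of 3; Mir222, Mir221 and Tnfsf9 are highest in AE9a+miR-126, and Car1 and Fcgr1 are lower in AE9a+miR-126 than in miR-126KO+AE9a.

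The lists gave similar medians in the leukaemia arms for some groups and not for others, side by side and against the same 3 controls, which the arms share. The NF-kappaB median against controls was 1.75 in AE9a+miR-126, 1.04 in AE9a and 1.08 in miR-126KO+AE9a. The erythroid median was -1.64 in AE9a+miR-126, -1.73 in AE9a and -0.89 in miR-126KO+AE9a, and the B cell median -1.82, -1.11 and -2.22 in that order. For neutrophil secondary granule and S100 genes it was -0.83, -0.15 and -2.03, and for type I interferon genes -0.24, -0.58 and 1.23. Cell cycle medians were -1.02, -0.85 and -0.75, and those of the stefin A list 1.93, 1.68 and 0.12. Over all genes the medians were 0.01, 0.03 and 0.02.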

How the data were processed

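RNA of sorted donor cells was hybridised to 1-colour Affymetrix Mouse Gene 2.0 ST arrays, 1 array per mouse. The deposited values are log2 levels of 27037 probe sets, made with RMA and Partek 6.0 per the submitters' processing notes; no source used here gives the background setting or any filter. RMA brings the probe intensities of all arrays to one distribution, so shifts shared by most genes would be removed. The deposited probe set values still differed in spread between arrays. Their SD was 1.868 in control 3, 2.08 in control 1 and 1.428 in 1 AE9a+miR-126 array of passage 3. After cyclic loess normalization 3217 genes passed against normal controls, against 2159 without it. The number of arrays limits the precision: the median standard error was 0.222.

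By the platform annotation 23521 probe sets had a single symbol, 1814 had several and 1702 had none, and these last were left out of the gene tests with those of several symbols. Where a gene had more than 1 probe set (1082 genes), that of highest mean was kept, which left 22180 genes. limma 3.58.1 in R 4.3.3 was fitted to all 39 arrays with a mean for each of 13 groups (26 residual degrees of freedom), and p-values were adjusted over 22180 genes by Benjamini-Hochberg with a threshold of 0.05. Groups came from titles. The labels do not say which donor seeded which mouse, so p-values measure a spread between recipient mice. That spread was pooled within all 13 groups, so mice of later passages entered it as well as the compared mice. All 8 arrays of low spread (SD under 1.8) came from later passages. With first-passage arrays and controls alone, 3540 genes passed against controls instead of 2159, and 85 against AE9a instead of 7. Named genes are the 12 largest passing rises and falls without overlap between groups, up to 4 per list by smallest p, the 5 largest each way among those passing against each other arm (in each case passing over predicted, microRNA, histone, receptor-family and immunoglobulin or T cell receptor segment genes), and the miR-126 and fusion genes; others are said to be chosen afterwards or are listed as the remaining members that passed.

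The 45 lists held 862 symbols, of which 779 were measured, 5 through an older symbol. Members, lists and tests were chosen with earlier results of these data known. On simulated data for this comparison, the test found 10 of 50 genes changed 1.5-fold, 35 of 50 at 2-fold, 48 at 4-fold and 50 at 8-fold, while 6 of 21980 unchanged genes passed. The simulation changed only 50 genes at each fold size and gave every array the same noise. In the data 2159 genes passed, so these rates may not hold for the real comparison. Alternatives were the compared groups or first-passage arrays alone, blocking on the replicate number, array weights, a trended prior, array spread as a covariate, cyclic loess and quantile normalization, leaving out dim genes, keeping every probe set, a 2-fold minimum and leaving out each mouse. Sequences came from RefSeq (GRCm38.p6).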

Additional observations from a re-analysis of the deposited data

Results flagged for a closer look

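Counted here are genes chosen by the naming rule and the Mir221, Mir222 and Mir146 probe sets. Others named in the text, such as Usp18 and Ighg3, are left out. There were 30 differences for which the test of AE9a+miR-126 against another leukaemia arm itself passed (limma, adjusted over all genes). In these the effect against the shared normal controls differed between the arms. All 7 genes passing against AE9a are among them: Tnfsf9 (2.98), Mir222 (2.59), Selp (2.06), Cav1 (1.96), Mt2 (1.62), Sele (0.96) and Fam167a (-1.16). Fam167a lay between the arms, since against miR-126KO+AE9a it was higher by 0.85. Against miR-126KO+AE9a 33 genes were higher and 96 lower. Of those counted here, the higher ones besides Fam167a were Mir221 (2.78), Mir222 (2.51), Tnfsf9 (2.40), Ncam1 (2.10), Nfkbiz (1.90) and Selp (1.82). Smaller rises were those of Shisa2 (1.64), Il23a (1.41), Tnfaip3 (1.36), Ptges (1.33), Mir146 (1.11) and Sele (1.07). Those chosen by the naming rule and lower were Tph1 (-4.71), Car1 (-4.51), Mcpt1 (-4.29), Oas1g (-4.15), Fcgr1 (-4.06), Ctse (-2.91), Cmpk2 (-1.83), Ddx58 (-1.71), Oas3 (-1.71) and Mmp10 (-1.23). All values are log2 differences, AE9a+miR-126 minus the named arm. Selp, Sele and Tnfsf9 and the Mir222 probe set were higher than in both other arms.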

How the results depend on the processing

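None of the 2159 calls against normal controls changed sign under the alternatives compared gene by gene, which leave out the fit to every probe set. Under several of these, among them the compared groups alone, the replicate block and the trended prior, the log2 difference is the same by design. The sign could change only under others, such as array weights, the normalizations and leaving out a mouse. Of 196 named genes 150 passed, 119 of these under all alternatives other than every probe set and the 2-fold minimum, and 0 of the 150 changed sign; 3 of the 46 that did not pass did. The count of 2159 was 3540 with first-passage arrays and controls alone, 4043 with array spread as a covariate, 8273 with array weights, 1223 with a 2-fold minimum and 3999 without the 8 arrays of low spread (an alternative chosen after seeing the data), and ran from 1319 to 1653 when 1 mouse was left out. Of 54 list counts above 0, 17 grew by over 1.5 times with first-passage arrays, 8 after cyclic loess, 3 after quantile normalization (2 shrank) and 30 with array weights. The 7 genes against AE9a became 2 with the compared groups alone, 85 with first-passage arrays, 2557 with array weights and 3 to 57 with 1 mouse left out. The 129 against miR-126KO+AE9a became 318 with first-passage arrays, 232 with array spread as a covariate, 3696 with array weights, 258 without low-spread arrays and 55 to 133 with 1 mouse left out. Counts across arms thus depend strongly on how the spread is estimated, and the cause was not tested. The higher share of calls against AE9a was 85.7%, against 57.1% after cyclic loess and 66.7% after quantile normalization. Same-numbered mice did not deviate together (correlations 0.208, -0.114 and -0.026 against controls), so the numbers were not taken as pairs; with the replicate block 2090, 7 and 119 genes passed against controls, AE9a and miR-126KO+AE9a, and Runx1 had an adjusted p of 0.0523 against controls. With 3 mice a group, changes under 2-fold were often missed in simulation, and levels near the bottom of the array give no reliable fold.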
